A study of Mus musculus with 16 samples.

Results

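The difference between the effect of NM1 loss in whole organs and its effect in cultured fibroblasts was measured for 20285 probe sets, which is 45.0% of the 45037 on the array. The knockout effect is the mean log2 level in knockout (KO) samples minus the mean in wild-type (WT) samples. It was averaged over lungs and heart for the organs, and the effect in skin fibroblasts was then subtracted. A negative difference therefore means that KO minus WT was lower in the organs than in the fibroblasts. A probe set was a member when its mean level lay above 3.79, the median log2 value of the table, in fibroblasts and in at least 1 of the organs, taken over both genotypes, so that 1 genotype of a member can still lie below it. Of the members, 18690 lay above that median in both organs, 981 in lungs and not in heart, and 614 in heart and not in lungs. Exactly 1 gene was given for 14904 of them, covering 9546 genes, several genes for 341 and none for 5040, which are unnamed here. At the edge of the rule, Plcl2 lay just inside and Colgalt2 just outside, both with a fibroblast mean that rounds to 3.79. Their differences were 0.17 and 0.07.

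The organ groups were 3 KO and 3 WT mice, with lungs and heart taken from the same 6 animals, KO 1602, 1603 and 1586 and WT 1592, 1624 and 1593. The fibroblast groups were 2 KO and 2 WT samples, labelled skin fibroblasts and cells, with the mouse numbers 1584, 1550, 1571 and 1623. No fibroblast sample carries the number of an organ mouse, so no animal links the sides of the comparison. The labels give no strain, age, passage number or culture conditions, and do not say which part of the gene was removed in the NM1 KO. A mouse number was taken to stand for 1 animal, and the p-values measure the spread between these samples. Since organs and cultures come from different animals, the difference between tissues and any difference between the sets of animals cannot be told apart.

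NM1, nuclear myosin 1, is an isoform of the actin-based motor protein encoded by Myo1c. It differs from the cytoplasmic isoform by a short extension at its amino terminus, and it is known for its part in transcription by RNA polymerases I and II and in chromatin remodelling through the B-WICH complex, which holds the remodeller SMARCA5 and the Williams syndrome transcription factor BAZ1B. Lungs and heart are mixtures of epithelial, muscle, vascular and stromal cells, whereas cultured fibroblasts are a proliferating connective tissue cell that secretes collagen and forms contractile stress fibres.

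Each tissue carried its own markers. Sftpc, a surfactant protein gene, was between 13.9 and 14.1 log2 in lungs, Myl2, a ventricular myosin light chain, between 13.83 and 13.98 in hearts, and Col1a1 between 10.9 and 11.6 in fibroblasts. In the cultures the mean over 13 macrophage, 9 keratinocyte or 14 skeletal myoblast markers stayed between 3.23 and 3.92, near the median of the table. Libraries of the organs did stand apart. In the KO heart of mouse 1602 the upper quartile of all values was 5.63, and it lay between 6.17 and 6.31 for the remaining hearts. The mean of 6 atrial markers was 5.59 in KO heart 1602 and 6.24 in KO heart 1586, against 10.03 in KO heart 1603 and 9.23 to 10.6 in WT hearts. The mean of 9 adipocyte markers was 8.81 in KO lungs 1603, 9.19 in KO lungs 1586 and 7.67 in WT lungs 1592, against 4.26 to 4.99 in the other lungs. The median SD within a group was 0.102 for KO and 0.137 for WT fibroblasts. It was 0.217 for KO lungs, 0.170 for WT lungs, 0.314 for KO hearts and 0.155 for WT hearts. In bulk samples, fewer cells of a type and less RNA per cell cannot be told apart.

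Myo1c itself was lower in KO samples of all 3 tissues. The mean of its 4 probe sets was 7.09, 6.55 and 6.31 log2 in the lungs of KO mice 1602, 1603 and 1586, and 7.55, 8.10 and 8.35 in WT lungs. In hearts it was 6.00, 5.98 and 5.92 in KO mice and 6.73, 6.83 and 6.6 in WT mice. In fibroblasts it was 6.26 and 6.24 in KO samples and 7.52 and 7.81 in WT samples. In this mean the genotypes did not overlap in any tissue. KO minus WT was -1.35 in lungs, -0.75 in heart, -1.05 over both organs and -1.41 in fibroblasts, a difference of 0.36 between organs and fibroblasts. Exact permutation of the genotype, two-sided and done separately over mice and over cultures, gave p = 0.667 for this difference, where the 120 arrangements allow no p under 0.0167. That permutation stands for no genotype effect on either side. Myo1c fell on both sides, so the permutation cannot tell whether its effects in organs and fibroblasts differ. For single probe sets the difference ran from 0.15 (SE 0.33) to 0.52 (SE 0.34). On the probe set with 0.52, 1449550_PM_at, the genotypes overlapped in hearts. Its effect was -0.17 in hearts, -1.23 in lungs and -1.22 in fibroblasts. The probe sets do not tell the NM1 isoform from the others.

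**Figure D1:**
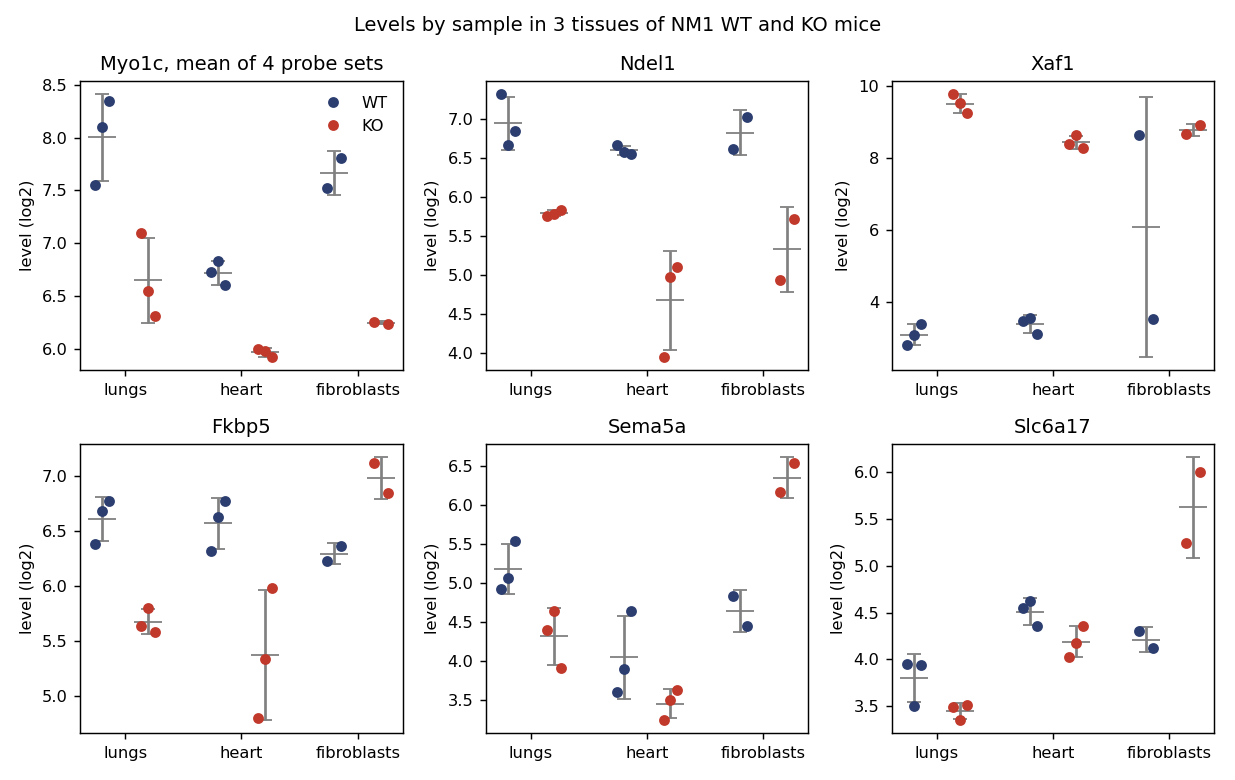
Log2 level of Myo1c (mean of 4 probe sets), Ndel1, Xaf1, Fkbp5, Sema5a and Slc6a17 in every sample, by tissue; points are samples (WT blue, KO red), grey bars the group mean and its SD. Myo1c and Ndel1 were lower in KO samples of every tissue, Xaf1 was high in 1 of 2 WT fibroblast samples (8.63 against 3.54), and Fkbp5 and Sema5a were lower in KO organs and higher in KO fibroblasts.

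No member had a knockout effect in organs that differed from that in fibroblasts at an adjusted p under 0.05 (0 of 20285, 0%; smallest adjusted p = 0.102; limma, two-sided, Benjamini-Hochberg over the members). At an unadjusted p under 0.05 there were 1009, or 4.97%, of which 202 (0.996%) were higher in organs and 807 (3.98%) lower, where 5% of 20285 is 1014. Adjusted over all 45037 probe sets in place of the members, 7 were called, of which 1 was a member, an unnamed probe set described below. The heart alone against fibroblasts gave 1 call (0.00493%), the same unnamed probe set, and 1458 members (7.19%) at an unadjusted p under 0.05. The lungs alone against fibroblasts gave 0 calls (0%) and 767 members (3.78%). The sides taken alone were unequal. The organs had 14 called members (0.069%), 5 higher and 9 lower in KO, and 3385 (16.7%) at an unadjusted p under 0.05. This count was 1 with mouse means as the unit, and ran from 2 without mouse 1593 to 275 without KO heart 1603 when 1 library or mouse was left out. The fibroblasts had 0 called (0%) and 487 (2.4%) at an unadjusted p under 0.05. The median SE of an effect was 0.287 for the difference, 0.143 for the organs and 0.248 for the fibroblasts. The fit gives a probe set the same variance in all groups, so the ratio of these SEs reflects group sizes. The fibroblast groups had the lowest median SD within a group, 0.102 for KO and 0.137 for WT. Among the organ groups it ran from 0.155 in WT hearts to 0.314 in KO hearts. Which side sets most of the error of the difference was therefore not shown.

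The effects of the sides were nearly uncorrelated across members. The SD of the fibroblast effect over members was 0.242, no larger than its median SE of 0.248. For organs the SD was 0.234 and the median SE 0.143. Error of this size would pull a correlation towards 0. These SEs rest on the same variance in all groups, and the spread within the fibroblast groups was smaller, so the fibroblast error may be overstated. The size of that error was not tested, and the correlation cannot tell whether the knockout effects are shared. Pearson's r between the organ and the fibroblast effect was -0.0351 and Spearman's rho -0.0464 over 20285 probe sets, which are not independent of each other, with -0.0520 for lungs and -0.00863 for heart against fibroblasts. The sign of the effect was the same on both sides for 9403 members (46.4%) and opposite for 10882. Where both effects exceeded 0.5 in size, 69 members had the same sign, 74 were lower in KO organs and higher in KO fibroblasts, and 28 were the reverse. The median difference was -0.14, with 69.6% of members below 0, made of a median organ effect of -0.11 and a median fibroblast effect of 0.02. This shift moved with 1 library: without the KO heart of mouse 1602, the one with the low upper quartile, the median difference was -0.07 and 61% lay below 0. It also moved with the scaling: after quantile normalization of the arrays the median difference was -0.03, 54.8% of members lay below 0, and at an unadjusted p under 0.05 the split was 397 higher and 508 lower in organs. Opposite effects over 0.5 in size then numbered 45 lower and 35 higher in KO organs. Differences of gene lists are therefore read below against the median of all genes.

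**Figure D2:**
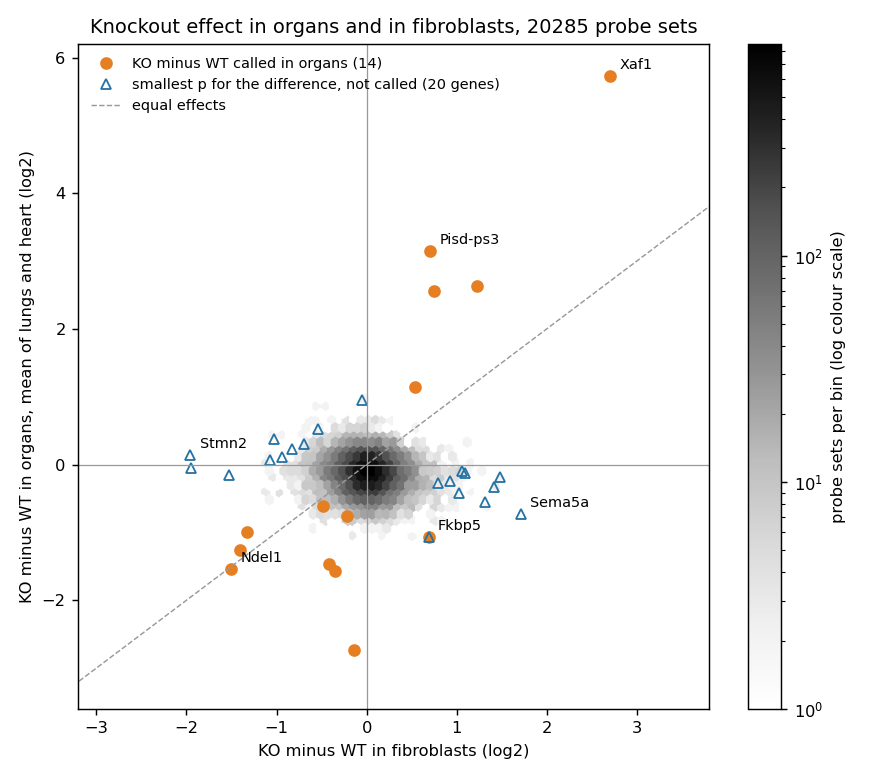
KO minus WT in organs (mean of lungs and heart, vertical axis) against KO minus WT in fibroblasts (horizontal axis), both log2, for 20285 probe sets as grey bins on a log colour scale. Orange points are the 14 probe sets called in organs, open triangles the 20 genes with the smallest p for the difference, and the dashed line marks equal effects; Ndel1 lies near that line, Xaf1 and Pisd-ps3 above it and Sema5a below it.

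With 2 fibroblast samples per genotype, the calls turned on single cultures. Without WT fibroblasts 1623, 10 members were called, without WT fibroblasts 1571 there were 7, and without KO fibroblasts 1584 there were 2, each time in limma with Benjamini-Hochberg adjustment. Such a fit leaves 1 culture in a fibroblast group, takes its spread from the other groups and assumes that the lone culture varies as they do; this holds for every p-value given without a fibroblast culture, here and below. Most of these genes differed between the WT cultures. Selenbp1, a selenium-binding protein gene, was 6.97 log2 in WT culture 1571, 3.69 in WT culture 1623 and 5.0 and 5.16 in the KO cultures. Its difference was 1.78 (adjusted p = 0.00907) without WT 1623 and -1.50 (adjusted p = 0.0407) without WT 1571, so that its direction turned with the culture left out. Cd34, a surface marker of stromal and vascular progenitor cells, was 7.97 in WT 1571, 5.99 in WT 1623 and 5.62 and 5.39 in KO. Srgn, a proteoglycan of secretory granules, was 7.93 in WT 1571, 4.51 in WT 1623 and 5.82 and 5.84 in KO. Ltbp1, which holds latent TGF-beta in the matrix, was the reverse, 7.08 in WT 1571, 9.69 in WT 1623 and 9.03 and 9.25 in KO. These 4 genes were chosen after their values were seen, and in each of them the WT cultures differed more from each other than the KO cultures did.

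The members nearest to the threshold on the low side were genes that were higher in KO than in WT fibroblasts, with organ effects below 0. None passed the test, and the following values describe them. Sema5a, a semaphorin that guides growing axons and vessels, was 6.16 and 6.54 log2 in KO fibroblasts and 4.83 and 4.44 in WT. In lungs it was 4.39, 4.64 and 3.91 in KO and 4.92, 5.06 and 5.54 in WT. The KO hearts had 3.25, 3.49 and 3.62, the WT hearts 3.61, 3.89 and 4.64. The KO samples were thus the higher ones in culture and the lower ones in lungs, and in hearts the highest KO value lay just above the lowest WT value. The difference was -2.44 (SE 0.37, adjusted p = 0.102 in limma), from an organ effect of -0.73 and a fibroblast effect of 1.71. A second member probe set of Sema5a gave -0.68 in organs and 1.27 in fibroblasts.

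Slc6a17, a transporter of neutral amino acids into synaptic vesicles, was 5.24 and 6.01 log2 in KO fibroblasts and 4.30 and 4.12 in WT. KO lungs had 3.49, 3.36 and 3.51 and WT lungs 3.95, 3.51 and 3.94, while KO hearts had 4.03, 4.18 and 4.36 and WT hearts 4.55, 4.63 and 4.35. The difference was -1.75 (SE 0.26, adjusted p = 0.102 in limma). It was -2.13 without KO fibroblasts 1584, with KO 1550 as the only KO culture, and -1.37 without KO fibroblasts 1550. Dmd, the gene of dystrophin, which ties the actin cytoskeleton to the membrane, was 5.40 and 5.94 in KO fibroblasts and 4.46 and 3.92 in WT. Its organ effect was -0.18 and its difference -1.66 (SE 0.31, adjusted p = 0.304). Thsd4, a matrix protein that promotes the assembly of fibrillin fibres, was 6.01 and 6.09 in KO fibroblasts and 4.48 and 4.98 in WT, and 3.28, 4.11 and 4.06 in KO hearts against 4.87, 4.59 and 4.80 in WT hearts. In lungs the Thsd4 genotypes overlapped, and its difference was -1.88 (SE 0.35, adjusted p = 0.304).

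Fkbp5 was the only gene among these 20 that was also called in the organs. It encodes a co-chaperone of the glucocorticoid receptor and is itself induced by glucocorticoids. It was 5.63, 5.80 and 5.58 log2 in KO lungs, against 6.38, 6.68 and 6.77 in WT lungs, and 4.80, 5.34 and 5.98 in KO hearts and 6.31, 6.63 and 6.77 in WT hearts. In fibroblasts the order was turned, with 7.11 and 6.84 in KO and 6.22 and 6.36 in WT. The genotypes did not overlap in any of the 3 tissues. Fkbp5 fell by 1.07 in KO organs (adjusted p = 0.0281 in limma) and had an effect of 0.69 in fibroblasts that was not called (adjusted p = 0.9999). The difference between them was -1.75 (SE 0.33, 95% interval -2.46 to -1.04, adjusted p = 0.304). With both organs of a mouse averaged first, so that the mouse is the unit, the organ effect was not called (adjusted p = 0.169). Of its other probe sets, both too low to be members, 1 gave -0.41 in organs and 0.33 in fibroblasts, and 1 gave 0.43 and -0.54. The 250 bases before the RefSeq start of Fkbp5 are shown because the gene lies on opposite sides in organs and culture; they lie on the minus strand of GRCm38.p6 at chr17:28486150-28486399.
Fkbp5: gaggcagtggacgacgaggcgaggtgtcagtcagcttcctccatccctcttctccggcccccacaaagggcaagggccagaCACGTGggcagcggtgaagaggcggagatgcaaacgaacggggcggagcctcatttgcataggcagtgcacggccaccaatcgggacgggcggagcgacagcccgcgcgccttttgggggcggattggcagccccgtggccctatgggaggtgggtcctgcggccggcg
Capitals mark 1 match to CACGTG, the E-box read by clock and MYC family factors, whose first base lies 169 bases before the start. Such a match is present in 6.02% of 32851 RefSeq windows of this length. AGAACA, a core site of the glucocorticoid receptor, has no match here on either strand and is found in 16.1% of windows. Matches are a description of these letters and not of binding.

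The remaining genes of this side were Spats2l (difference -1.15), Zfp469 (-1.21), Megf6 (-1.17), Lmcd1 (-1.45) and Ptk7 (-1.06), with fibroblast effects from 0.79 to 1.09 and organ effects from -0.42 to -0.09. Ptk7, a receptor of planar cell polarity signalling, was 8.23 and 7.81 log2 in KO fibroblasts and 7.12 and 7.35 in WT. Lmcd1, a LIM domain protein that represses GATA factors, was 7.62 and 7.51 in KO fibroblasts and 6.37 and 6.71 in WT. The KO cultures were the higher ones in each of these genes, and their adjusted p in limma lay between 0.304 and 0.413. Second probe sets gave the same order for Spats2l (organs -0.36, fibroblasts 1.11) and Megf6 (organs -0.43, fibroblasts 0.95).

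On the high side, the 10 genes nearest to passing had an adjusted p between 0.640 and 0.878 in limma. Most of them were lower in KO than in WT fibroblasts, with an organ effect nearer to 0. Disp1, which releases Hedgehog ligands from cells, was 3.94 and 4.20 log2 in KO fibroblasts and 5.36 and 4.65 in WT, and its organ effect was 0.11. Its difference was 1.04 (SE 0.26). Meox2, a homeobox factor of mesoderm, was 2.77 and 3.7 in KO fibroblasts and 5.0 and 4.52 in WT, with an organ effect of -0.16 and a difference of 1.36 (SE 0.42). Acaa1b, a thiolase of peroxisomal fatty acid oxidation, was 3.67 and 3.60 in KO fibroblasts and 4.43 and 4.50 in WT, with a difference of 1.06 (SE 0.30). The genotypes did not overlap in culture for any of these 3 genes. In culture the KO mean of Meox2 (3.24) and of Acaa1b (3.64) lay below the threshold of 3.79, so both are members through their WT cultures and the size of a fall to such levels cannot be read closely. The same holds for H2-Aa (3.31), Trdn (3.77) and Cdk12 (3.77) among the 10. Both genotype means of Disp1 in lungs (KO 3.16, WT 2.99) and of Acaa1b in hearts (KO 3.41, WT 3.28) lay below the threshold too.

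For others on the high side 1 culture carried the value. Stmn2, a microtubule regulator of neurons, was 7.51 log2 in WT fibroblasts 1623 and 5.02 in WT 1571, against 4.78 and 3.84 in KO. Its difference of 2.09 (SE 0.68) became 3.34 without WT 1571, with WT 1623 as the only WT culture, and 0.85 without WT 1623. H2-Aa, an MHC class II chain, was 6.19 in WT fibroblasts 1623, 4.33 in WT 1571 and 3.61 and 3.02 in KO. The H2-Aa difference of 1.89 (SE 0.49) became 2.82 without WT 1571 and 0.97 without WT 1623. The mean of 13 macrophage markers was 3.76 to 3.92 over all cultures. Trabd2b, a protease that cleaves Wnt ligands, was 6.97 in WT 1571, 5.64 in WT 1623 and 5.10 and 5.36 in KO. The Trabd2b difference of 1.15 became 1.81 without WT 1623 and 0.48 without WT 1571. Cdk12, a kinase of the RNA polymerase II tail, had effects of opposite sign, 0.53 in organs and -0.53 in fibroblasts, and a difference of 1.06 (SE 0.36). Sfi1, a centrosomal protein that binds centrins, was carried by the lungs, where it was 9.41, 9.25 and 9.77 in KO and 7.64, 8.38 and 7.60 in WT, an effect of 1.60. In hearts it was 5.82, 6.44 and 6.37 in KO against 5.54, 6.01 and 6.16 in WT, with overlapping genotypes and an effect of 0.31, and its fibroblast effect was -0.05. The other probe sets gave differences of 0.48 for Stmn2, 0.50 for Meox2, between -0.46 and 0.11 for Cdk12, and between -0.46 and 1.72 for Sfi1. The 10 genes also included Trdn, triadin of the muscle calcium release complex, with a difference of 1.41 (SE 0.40), and Ccdc84, with 1.01 (SE 0.33).

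**Figure D3:**
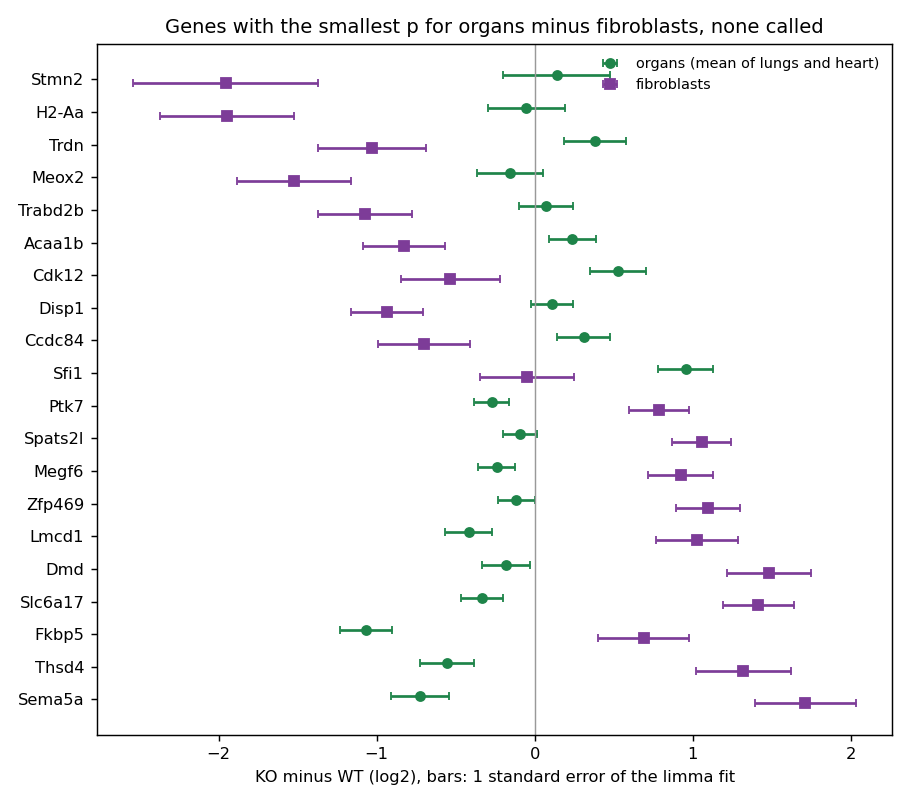
KO minus WT (log2) in organs (green circles) and in fibroblasts (purple squares) for the 20 genes with the smallest p for the difference among those of at least 1 in size; bars are 1 standard error of the limma fit. None was called. From Sema5a to Ptk7 the fibroblast effect lies between 0.69 and 1.71 and the organ effect below 0, and for the 10 genes from Sfi1 to Stmn2 the fibroblast effect lies between -1.96 and -0.05.

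The members that were called in organs fell into those with a matching effect in fibroblasts and those without one. Myo1c (2 probe sets), Ndel1 and Glod4 matched. Ndel1, which regulates the dynein motor, was 5.76, 5.78 and 5.84 log2 in KO lungs, against 7.32, 6.66 and 6.86 in WT lungs. KO hearts had 3.94, 4.97 and 5.10 and WT hearts 6.67, 6.58 and 6.55, and KO fibroblasts had 4.94 and 5.72 and WT fibroblasts 6.62 and 7.03. The genotypes did not overlap in any tissue. Ndel1 fell by 1.54 in KO organs (adjusted p = 0.00868 in limma) and its fibroblast effect was -1.50, a difference of -0.04 (SE 0.39, 95% interval -0.89 to 0.81). Its other member probe set gave -0.24 in organs and 0.10 in fibroblasts. Glod4, a glyoxalase domain protein, fell by 0.61 in organs (adjusted p = 0.0280) and had an effect of -0.49 in fibroblasts, a difference of -0.12 (95% interval -0.52 to 0.28).

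Unnamed probe set 1434914_PM_at showed the opposite pattern. It was 5.95, 5.38 and 5.34 log2 in KO lungs, against 7.27, 7.86 and 7.90 in WT lungs, and 3.03, 3.20 and 3.32 in KO hearts and 6.32, 6.67 and 6.62 in WT hearts. In fibroblasts it was 3.31 and 4.20 in KO and 4.21 and 3.58 in WT, near the median of the table, and the genotypes overlapped. It fell by 2.74 in KO organs (adjusted p = 1.51e-05 in limma), and was the only one of the 14 that was also called with mouse means as the unit (adjusted p = 0.0177). Its fibroblast effect was -0.14 and the difference -2.60 (SE 0.36, adjusted p = 0.102). Over all probe sets this difference was called (adjusted p = 0.0440), and for heart against fibroblasts it was called among the members at -3.22 (adjusted p = 0.0385). Its fibroblast mean was 3.82, just above the threshold of 3.79, and its KO fibroblast mean of 3.75 lay below it, so a difference between the sides could not be told from low signal in culture. The 3 other unnamed probe sets called in organs fell by 0.75, 1.57 and 1.46 there and had fibroblast effects of -0.21, -0.35 and -0.41.

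The probe sets named Pisd-ps3, a pseudogene of phosphatidylserine decarboxylase, rose in KO organs by 2.55, 3.15 and 2.63, with fibroblast effects of 0.75, 0.71 and 1.23 that were not called. The first of these was 11.5, 11.3 and 11.1 log2 in KO lungs, against 7.73, 9.32 and 7.54 in WT lungs. In fibroblasts it was 8.09 and 8.98 in KO and 8.23 and 7.33 in WT, so the genotypes were separate in lungs and overlapped in culture. The differences were 1.80 (SE 0.67), 2.44 (SE 0.85) and 1.40 (SE 0.67), each with an adjusted p of 0.902. Whether these probe sets also bind transcripts of the parent gene was not tested. Zfp947, a zinc finger gene, rose by 1.15 in organs on 1 probe set (fibroblasts 0.53), while its other had effects of -0.99 and -0.88.

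Xaf1 had the largest organ effect of all members, and its fibroblast effect rested on 1 culture. Xaf1 binds XIAP, an inhibitor of caspases, and is induced by interferons. Its more changed probe set was 9.77, 9.53 and 9.25 log2 in KO lungs, against 2.81, 3.10 and 3.41 in WT lungs, and 8.39, 8.64 and 8.29 in KO hearts and 3.50, 3.58 and 3.11 in WT hearts. In fibroblasts it was 8.67 and 8.91 in KO, 3.54 in WT culture 1623 and 8.63 in WT culture 1571. The WT culture 1571 thus had the KO level of Xaf1, although its Myo1c (7.52) and Ndel1 (6.62) were at the WT level. Xaf1 rose by 5.73 in KO organs (adjusted p = 0.00150 in limma, 0.169 with mouse means as the unit and 0.0675 without the 3 lungs high in adipocyte transcripts). The fibroblast effect was 2.70 and the difference 3.02 (SE 1.16, adjusted p = 0.902). With WT culture 1571 as the only WT culture the difference was 5.57 (adjusted p = 6.34e-06), and with WT culture 1623 as the only one it was 0.48 (adjusted p = 0.948). The second Xaf1 probe set went the other way and alike in all tissues: it was 6.50 and 6.67 in KO fibroblasts and 7.78 and 7.69 in WT, with effects of -1.11 in organs and -1.15 in fibroblasts. On that probe set WT culture 1571 lay with the other WT culture.

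The 250 bases before the RefSeq start of Xaf1 are shown because its 2 probe sets disagree in WT culture 1571; they lie on the plus strand of GRCm38.p6 at chr11:72301379-72301628.
Xaf1: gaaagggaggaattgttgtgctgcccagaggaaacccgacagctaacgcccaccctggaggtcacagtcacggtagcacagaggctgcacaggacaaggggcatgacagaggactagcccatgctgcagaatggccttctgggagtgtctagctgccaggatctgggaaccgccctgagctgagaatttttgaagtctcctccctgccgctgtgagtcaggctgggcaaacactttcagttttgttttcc
It holds no match on either strand to the core of the interferon-stimulated response element (GAAA, any 2 bases, GAAA), which is present in 2.98% of windows of this length, nor to AGAACA or CACGTG. This says only that these letters are not in this window.

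Of the 7 named genes called in organs, 4 (Myo1c, Ndel1, Glod4 and Xaf1) lie on chromosome 11, which holds 8.24% of the member genes (785 of 9523). The chromosome of Pisd-ps3, another of the 7, was unknown, and here and below it is counted as not on chromosome 11. Glod4 lies 11 protein-coding genes from Myo1c in the RefSeq order, Xaf1 85 and Ndel1 214. The same chromosome was frequent among effects shared by organs and culture. The 10 genes with the same sign in lungs, heart and fibroblasts and the largest smallest effect were Xaf1, Pisd-ps3, Ndel1, Myo1c, H2aw, Zfp947, Ccl8, Trim16, Nid1 and Pcolce2, and 6 of them lie on chromosome 11. H2aw, a histone H2A gene, had effects of -0.74 in organs and -1.51 in fibroblasts, with 6.05 and 6.03 log2 in KO fibroblasts and 7.21 and 7.89 in WT. Trim16, a ubiquitin ligase, had effects of -1.15 and -1.01. Ccl8, a chemokine, had effects of 1.0 and 0.62, with overlapping genotypes in lungs, in hearts and in fibroblasts. None of H2aw, Trim16 and Ccl8 was called on either side. The animals' strain background is not given, and whether the region around Myo1c differs by descent between genotypes was not tested.

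KO and WT did not overlap in lungs, in heart and in fibroblasts for a small share of members. KO was lower in all 3 tissues for 46 (0.227%), higher in all 3 for 10 (0.0493%), lower in both organs and higher in fibroblasts for 48 (0.237%), and higher in both organs and lower in fibroblasts for 4 (0.0197%). Of these probe sets, those with a shared direction in all 3 tissues covered 37 named genes, 8 of them on chromosome 11 (21.6%), and those with the opposite direction in culture 42 genes, 5 of them there (11.9%). With the mean of each mouse in place of its organs, the genotypes were apart on both sides in the same direction for 627 members (3.09%) and in opposite directions for 745 (3.67%). Examples of the shared direction, chosen after their values were seen, were Plxna2, a semaphorin receptor (organs -0.52, fibroblasts -0.60), Notch1 (-0.65 and -0.43) and Ecm1, a matrix glycoprotein (-0.71 and -0.41). Examples of the opposite direction beside Fkbp5, chosen in the same way, were Tmem119 (-1.08 and 0.52), Scpep1, a lysosomal peptidase (-0.50 and 0.64), Tgfbi, a matrix protein induced by TGF-beta (-0.53 and 0.71), and Nfil3, a clock output repressor (0.42 and -0.15).

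Gene lists were read against all 9546 genes tested, 1 probe set each, of which 73.3% had a difference below 0, with a median of -0.16 and 4.93% at an unadjusted p under 0.05. No list had a called member. Among the 23 lists with at least 9 tested genes, cell type markers aside, the 5 lowest were those of connective tissue and growth factors. Of the marker lists, atrial markers (median -1.79, 3 genes), mesothelium (-1.16, 1 gene) and skeletal myoblast markers (-0.79, 2 genes) also lay low. So did pericyte and smooth muscle (-0.77, 4 genes) and endothelial markers (-0.62, 4 genes). Marker lists as short lay high: adipocyte (1.19, 3 genes), neutrophil (0.49, 1 gene), keratinocyte (0.44, 2 genes) and chondrocyte and tendon markers (0.38, 2 genes). The median of 9 fibroblast markers was -0.33. All 26 tested genes of matrix glycoproteins and remodelling had a difference below 0, with a list median of -0.74. Their median effect was -0.55 in organs and 0.05 in fibroblasts. Of 17 collagens 16 lay below 0 (median -0.52), of 14 TGF-beta targets 13 (median -0.63), of 13 contractile and myofibroblast genes 12 (median -0.81), and of 21 growth factor, BMP, IGF and Wnt genes 20 (median -0.53). The collagen median was -0.44 in organs and 0.22 in fibroblasts. After quantile normalization, with 57.8% of all genes below 0, the counts were 26 of 26 matrix genes, 16 of 17 collagens, 11 of 14 TGF-beta targets, 11 of 13 contractile genes and 17 of 21 growth factor genes. These lists were chosen with earlier results of the same arrays in view.

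Single genes of these lists show both sides. Mylk, the kinase of smooth muscle myosin light chain, was 8.11 and 8.62 log2 in KO fibroblasts and 6.99 and 7.84 in WT. KO hearts had 6.65, 7.05 and 6.45 and WT hearts 7.11, 7.60 and 7.68. The KO was the higher genotype in culture and the lower in hearts, and the difference was -1.47 (SE 0.35, adjusted p = 0.620 in limma). Wnt4, a Wnt ligand, was 7.84 and 8.33 in KO fibroblasts and 7.12 and 6.54 in WT, with an organ effect of -0.30 and a difference of -1.55 (SE 0.38). Wnt5a was 9.29 and 9.0 in KO fibroblasts and 8.67 and 8.62 in WT, with an organ effect of -0.47 and a difference of -0.96. Col7a1, the collagen of anchoring fibrils, was 6.82 and 6.62 in KO fibroblasts and 5.85 and 5.87 in WT, with a difference of -1.03 (SE 0.29). Tgfb1 was 4.32 and 4.41 in KO fibroblasts and 3.52 and 4.0 in WT, and its difference was -0.68. In each of these the KO cultures were the higher ones.

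For other matrix and contractile genes the KO hearts had a lower mean than the WT hearts. Fmod, a proteoglycan that binds collagen, was 4.07, 5.97 and 3.83 log2 in KO hearts, against 7.64, 5.92 and 6.57 in WT hearts, with a difference of -1.51 (SE 0.69). Myl9, a smooth muscle myosin light chain, was 6.16, 7.47 and 6.48 in KO hearts and 8.60, 7.90 and 9.05 in WT. Tpm2, a tropomyosin, was 5.85, 6.99 and 6.51 in KO hearts and 7.60, 7.64 and 8.43 in WT, with a difference of -1.10 (SE 0.60). In all 3 genes KO hearts 1602 and 1586 were the lowest hearts, the same libraries that were low in atrial markers (5.59 and 6.24 against 10.03 in KO heart 1603) and in mesothelium markers, whose mean over 8 genes was 3.78 and 3.87 against 5.18 to 7.11 in WT hearts and 6.09 in KO heart 1603. The mean of 6 pericyte and smooth muscle markers was 6.37 to 6.76 in KO hearts and 7.06 to 7.57 in WT hearts. The part of these cells in the result was not tested. Without these 2 KO hearts the matrix glycoprotein median was -0.37, with 24 of 26 below 0, and the median of all genes -0.08. The collagen median was -0.42, the TGF-beta target median -0.53 and the contractile median -0.64 without them. The growth factor median moved from -0.53 with all libraries to -0.27 without them, with 17 of 21 below 0. The fibroblast cultures mattered as much: the contractile median was -0.37 without WT fibroblasts 1571 and -1.27 without WT fibroblasts 1623.

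**Figure D4:**
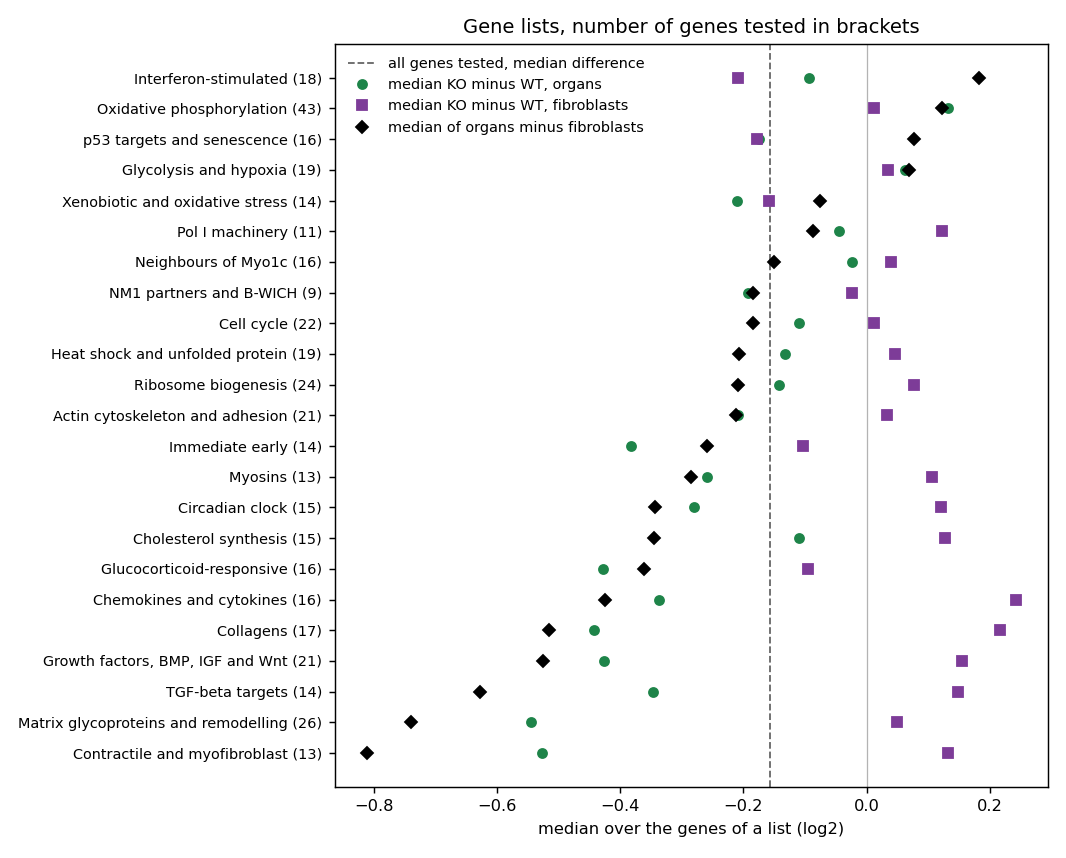
Median over the genes of 23 lists (number tested in brackets) of KO minus WT in organs (green circles), KO minus WT in fibroblasts (purple squares) and organs minus fibroblasts (black diamonds), all log2; the dashed line is the median difference of all genes tested, -0.16. Contractile, matrix and TGF-beta lists lie lowest, and the interferon and oxidative phosphorylation lists highest.

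Lists on the high side were fewer. Of 43 oxidative phosphorylation genes 37 had a difference above 0, with a median of 0.12, which is 0.28 above that of all genes. The effects were small: Ndufa8, a complex I subunit, was 9.12, 9.37 and 9.40 log2 in KO lungs, against 9.12, 8.93 and 8.90 in WT lungs, and between 9.60 and 9.70 in all fibroblasts. In lungs the higher Ndufa8 values were those of KO lungs 1603 and 1586, which were high in adipocyte, sarcomere, atrial and airway transcripts. Which of these went with Ndufa8 was not tested. The largest difference of the list was 0.33. Without the 3 lungs high in adipocyte transcripts, 29 of 43 lay above 0 and the median was 0.04. Of 18 interferon-stimulated genes 12 had a difference above 0 (median 0.18). The median effect was -0.09 over both organs, with 13 of 18 below 0, and -0.21 in fibroblasts. The organs went opposite ways, with a median effect of 0.16 in lungs and -0.23 in heart. Beside Xaf1, Gbp3, a guanylate-binding protein, had a difference of 0.54, Psmb9, an immunoproteasome subunit, 0.38, and Irf1, an interferon regulatory factor, -0.64. Without WT fibroblasts 1571 the list median was 0.01.

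The lists nearest to the known functions of NM1 had medians close to that of all genes, of which 73.3% lay below 0. Of 11 genes of the RNA polymerase I machinery 8 had a difference below 0, with a median of -0.09 against -0.16 for all genes. Polr1b, the second largest subunit of RNA polymerase I, was 4.97 and 4.76 log2 in KO fibroblasts and 4.33 and 4.20 in WT. Its organ effect was -0.15 and its difference -0.75 (SE 0.26, 95% interval -1.31 to -0.19, adjusted p = 0.896 in limma). Rrn3, the initiation factor of that polymerase, had a difference of -0.45 (SE 0.26). Of 24 ribosome biogenesis genes 22 (91.7%) lay below 0, with a median of -0.21, -0.14 in organs and 0.08 in fibroblasts. None of them had an unadjusted p under 0.05 in limma, against 4.93% of all genes and 1 of 11 (9.09%) in the polymerase list. Of 9 NM1 partners and B-WICH genes 8 (88.9%) lay below 0 (median -0.18), and 2 (22.2%), both lower, had an unadjusted p under 0.05. Among the 9 partner genes Hdac1, a histone deacetylase, had a difference of -0.63 (SE 0.23). It was 7.63, 8.03 and 7.80 in KO lungs and 8.17, 8.11 and 8.21 in WT lungs, with a fibroblast effect of 0.03. Baz1b, the B-WICH subunit, had a difference of -0.18 (95% interval -0.58 to 0.21). Single cultures turned the side of the all-gene median on which 2 of these lists lay: without KO fibroblasts 1550 the polymerase median lay below it (-0.10), and without WT fibroblasts 1571 the ribosome median lay 0.04 above it. Without the 3 lungs high in adipocyte transcripts the partner median lay 0.03 above it. After quantile normalization 6 of 11 polymerase, 17 of 24 ribosome and 6 of 9 partner genes lay below 0.

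Other lists gave no call and are given by their medians. Of 13 myosins, Myo1c included, 11 lay below 0 (median -0.29), and Myo1c lay above 0 with the largest difference of the list (0.33). Myo7a, a motor of stereocilia, was 7.18 and 7.37 log2 in KO fibroblasts and 6.72 and 6.27 in WT, with a difference of -0.87 (SE 0.26). The median was -0.36 over 16 glucocorticoid-responsive genes, which include Fkbp5, and -0.34 over 15 clock genes. In the latter Nfil3 had a difference of 0.57 (SE 0.19), with 8.62 and 8.58 in KO fibroblasts and 8.75 and 8.76 in WT and 4.76, 4.55 and 4.94 in KO lungs and 4.53, 4.36 and 4.26 in WT lungs. All 15 cholesterol synthesis genes lay below 0 (median -0.35), and 13 of 15 after quantile normalization. Fdps, an enzyme of that pathway, was 7.68 in WT fibroblasts 1571, 8.87 in WT 1623 and 8.77 and 8.81 in KO, so 1 WT culture set it apart. Without WT fibroblasts 1571 the median of this list lay 0.10 above the median of all genes. Of 16 p53 targets 9 lay above 0 (median 0.08), and of 16 chemokines and cytokines 13 lay below 0 (median -0.42). Saa3, an acute phase gene, led the latter with a difference of -1.76 (SE 0.73), at a mean of 12.22 (SD 0.31, n = 2) in KO fibroblasts and 11.02 (SD 0.93, n = 2) in WT.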

How the data were processed

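RNA was measured on 16 Affymetrix mouse arrays, labelled as biotin cRNA from 6 ug of total RNA per the labels' protocols. The deposited values are on a log2 scale, 1 per probe set and array. Partek 6.4 is named in the submitters' processing notes, while for background correction, summary and normalization the step is not given in the sources used. Of 45141 entries, 104 controls were left out. A model with 6 group means was fitted with limma 3.58.1 in R 4.3.3 (lmFit, eBayes; 10 residual and 3.53 prior degrees of freedom), two-sided, with Benjamini-Hochberg adjustment over the 20285 members and calls at an adjusted p under 0.05. All contrasts share this fit, and the code was tested on simulated data.

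Exact permutation tested the averaged Myo1c level. Named genes were every Myo1c probe set, the 10 genes per direction with the smallest p among differences of at least 1 in size, up to 4 genes per list by smallest p, and the 10 genes with the largest shared effect in all 3 tissues; others are said to be chosen after their values were seen. In lists, the probe set with the highest mean stood for its gene. Gene names came from the platform annotation, updated through RefSeq (GRCm38.p6) for 14879 of 14904 members with 1 gene.

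Members and lists were chosen with earlier results of these data known. Lungs and heart come from the same mice: the deviations of a mouse's organs from their group means correlated at 0.0446 to 0.184. Alternatives changed the normalization, the filter, the pairing, the variance model and the libraries used. The number of arrays, with 2 fibroblast samples per genotype, limits the precision.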

Additional observations from a re-analysis of the deposited data

Results flagged for a closer look

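In 6 genes every mouse mean of KO organs lay on one side of all WT mouse means while the fibroblast samples lay the opposite way. The difference itself was tested in limma and missed an adjusted p of 0.05 in each. Cdk12 was higher in KO organs and lower in KO fibroblasts, with a difference of 1.06. The other 5 were lower in KO organs and higher in KO fibroblasts: the difference was -1.75 for Slc6a17, -2.44 for Sema5a, -1.88 for Thsd4, -1.75 for Fkbp5 and -1.06 for Ptk7. They were looked for among genes already chosen for the size of this difference, and opposite, non-overlapping directions of this kind were found in 745 of 20285 members (3.67%).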

How the results depend on the processing

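With no filter on low values, 7 probe sets were called for organs minus fibroblasts, 3 for lungs minus fibroblasts, 5 for heart minus fibroblasts and 10 for fibroblasts. Heart minus fibroblasts gave 0 with the stricter filter, with array weights, without the 3 lungs rich in adipocyte transcripts and without the 2 KO hearts poor in atrial ones. The organ calls numbered 1 with mouse means as the unit, 22 with a trend and robust variance, 6 with array weights, 8 without the 3 lungs and 4 without the 2 KO hearts. Array weights gave 1 call in fibroblasts, and leaving out the 3 lungs gave 1 each for organs and for lungs minus fibroblasts. Array weights and both sets of left-out libraries were chosen after seeing the data. With the mouse as a replicate block the counts were 0, 0, 1, 14 and 0 for the 5 contrasts in the order organs, lungs and heart minus fibroblasts, organs, and fibroblasts, and no call changed. Leaving out 1 library or mouse gave 0 to 10 calls for organs minus fibroblasts, 0 to 10 for lungs and 0 to 11 for heart minus fibroblasts, 2 to 275 for organs (275 without KO heart 1603, 93 without mouse 1603, 2 without mouse 1593) and 0 to 18 for fibroblasts (18 without WT 1623, 14 without WT 1571), and a Myo1c difference of 0.22 to 0.51. The difference changed sign without the 3 lungs for Ndel1 (0.037), Ccl8 (-0.29) and Trim16 (0.33), and without the 2 KO hearts for Ndel1 (0.11), Zfp947 (0.12) and Trim16 (0.093). Over single libraries and mice it ranged from -0.43 to 0.35 for Ndel1, -0.53 to 0.31 for Zfp947, -0.27 to 1.03 for Ccl8, -0.80 to 0.52 for Trim16 and -0.17 to 0.33 for Nid1. Where a cause is not part of the alternative itself, it was not tested. Quantile normalization moved the median difference to -0.03.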

Other observations

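Probe sets that the rule leaves out because they were low in both organs held the other 6 calls over all 45037 probe sets (limma, adjusted p under 0.05). All were higher in KO than in WT fibroblasts. Chodl, a C-type lectin gene, was 6.45 and 6.92 log2 in KO fibroblasts and 3.24 and 3.49 in WT, with a fibroblast effect of 3.32. Lrrc15, a membrane protein of activated fibroblasts, was 7.40 and 6.33 in KO and 4.34 and 3.76 in WT on 1 probe set, and 7.81 and 6.53 against 4.80 and 4.37 on the other. Moxd1, a monooxygenase-like gene, was 5.71 and 5.52 in KO and 2.90 and 3.78 in WT. The unnamed 1423477_PM_at and 1438441_PM_at had fibroblast effects of 2.84 and 1.13. In the organs these probe sets lay at or below 3.78 in every sample, so a difference between the sides could not be told from low signal in organs.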
